A study of Mus musculus with 8 samples.

Results

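The genes of the ATP-binding cassette (ABC) transporter family, among them the pumps that carry drugs out of cells, were followed in cells sorted as leukemia stem cells (LSCs) from untreated mice with chronic myeloid leukemia (CML) and from CML mice given imatinib (CML-TKI). Members were taken by name alone, as every gene whose symbol is Abc followed by a letter from a to g, a number and at most 1 further letter, and 39 of the 15576 genes in the deposited table were such members. Subfamily A held 12 of them, B held 8, C held 7, D held 4, E held 1, F held 3 and G held 4. The mice carried BCR-ABL×SCL-tTA, in which a transactivator under an SCL element switches BCR-ABL on in stem cells once tetracycline is withdrawn, and the labels give the strain as C57BL/6 for both groups. The 4 CML libraries came from untreated mice, and the 4 CML-TKI libraries from mice that the labels say received 400 mg/kg imatinib, a tyrosine kinase inhibitor, on alternate days for 4 weeks. The paper conflicts with the labels here, since a legend on these RNA-seq data gives a lower imatinib dose, and its methods name both doses and both primary and transplanted mice. It gives an age for transplant recipients alone, and no source used here says which kind of mouse a library came from or whether mice were pooled. All 8 libraries were sorted from bone marrow as Lin-Sca1+cKit+Flt3- cells. The labels give the gate as CD150-negative and CD48-positive, whereas the paper defines LSCs as CD48-negative and CD150-positive. Slamf1, which encodes CD150, ran from 29 to 37.7 CPM (counts scaled to a common library size) in CML and from 0.62 to 6.58 CPM in CML-TKI libraries, and Cd48 from 3.86 to 6.4 CPM and from 39.9 to 178 CPM, so the RNA of the CML libraries goes against the gate on their label and that of the CML-TKI libraries goes against the paper's definition. The libraries are therefore called by their group below, without the name LSC.

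ABC proteins use ATP to move substrates across membranes. Plasma membrane pumps of the B, C and G subfamilies export drugs, conjugates and dyes, and ABCB1 and ABCG2 are known to carry imatinib. Abcg2 marks the dye-excluding side population in which mouse bone marrow stem cells are found, and mice have a pair of genes, Abcb1a and Abcb1b, in place of the human ABCB1. Members of subfamily A and part of subfamily G move sterols and phospholipids, several B members work in mitochondria or lysosomes, most D members import fatty acids into peroxisomes, and E and F members lack membrane spans and act on ribosomes.

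Close copies within the family limit these counts, first of all for Abcb1a and Abcb1b. The longest stretch that their coding sequences share without a difference ran over 338 bases, from coding base 1357 to 1694 of Abcb1a, and its first 250 bases are printed because a read inside them fits both genes. They were read from the GENCODE M21 transcripts on the open reading frame, and carry no capitals because every base is shared.

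Abcb1a and Abcb1b shared run: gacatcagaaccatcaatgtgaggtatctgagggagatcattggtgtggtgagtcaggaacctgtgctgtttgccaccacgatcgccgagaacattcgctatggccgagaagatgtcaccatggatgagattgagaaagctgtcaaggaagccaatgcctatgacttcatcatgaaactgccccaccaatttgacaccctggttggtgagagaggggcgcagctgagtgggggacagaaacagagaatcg

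Of the 50-base windows of their transcripts, 18.6% for Abcb1a and 19.6% for Abcb1b also occurred in a transcript of another gene, and the counts of both were not whole numbers in 6 of the 8 libraries. Abcb6 had 90.3% of its windows in the annotated transcript Gm29253, Abca3 had 14.6% in other transcripts, and for 34 of the 39 members fewer than 5% of windows were shared. The counts of Abca3 were fractional in 7 libraries, and those of Abcb6 in 0.

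Promoter sequences (250 bases before to 50 after the start site, RefSeq, build GRCm38.p6) matched 29 of the 39 members with 35 start sites. They are shown for the 5 members past the threshold of the test that had an entry, in lower case, 5′ to 3′ on the gene's strand, with the GC box GGGCGG on either strand in capitals. Abcd2, Abcc1 and Abcg1 had no entry. Abca13 and Abcc2, which were higher in CML-TKI libraries, come first, and Abca2, Abcc9 and Abcg3, which were lower, follow.

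Abca13 (chr11:9191692-9191991, plus strand): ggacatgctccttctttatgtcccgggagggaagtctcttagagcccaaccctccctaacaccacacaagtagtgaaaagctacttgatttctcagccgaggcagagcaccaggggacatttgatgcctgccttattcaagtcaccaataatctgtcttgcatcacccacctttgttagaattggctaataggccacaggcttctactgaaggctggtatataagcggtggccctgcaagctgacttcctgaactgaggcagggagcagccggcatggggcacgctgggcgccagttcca

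Abcc2 (chr19:43782058-43782357, plus strand): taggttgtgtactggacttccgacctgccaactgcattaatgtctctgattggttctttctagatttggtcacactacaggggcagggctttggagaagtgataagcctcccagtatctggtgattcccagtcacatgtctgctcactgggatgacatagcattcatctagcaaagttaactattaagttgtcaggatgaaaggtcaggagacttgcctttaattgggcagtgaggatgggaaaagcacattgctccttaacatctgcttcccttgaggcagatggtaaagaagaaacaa

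Abca2 (chr2:25428349-25428648, plus strand): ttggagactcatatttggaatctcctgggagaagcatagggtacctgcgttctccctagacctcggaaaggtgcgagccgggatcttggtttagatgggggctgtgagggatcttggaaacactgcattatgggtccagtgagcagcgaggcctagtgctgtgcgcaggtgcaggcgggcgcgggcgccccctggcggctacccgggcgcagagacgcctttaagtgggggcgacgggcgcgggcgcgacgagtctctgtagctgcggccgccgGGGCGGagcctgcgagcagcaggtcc

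Abcc9 (chr6:142702225-142702524, minus strand): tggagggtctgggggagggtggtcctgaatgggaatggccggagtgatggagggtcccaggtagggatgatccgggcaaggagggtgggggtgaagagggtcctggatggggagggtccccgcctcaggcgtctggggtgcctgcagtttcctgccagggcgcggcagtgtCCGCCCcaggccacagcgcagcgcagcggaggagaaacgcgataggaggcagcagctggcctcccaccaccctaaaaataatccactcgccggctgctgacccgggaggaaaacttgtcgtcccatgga

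Abcg3 (chr5:104982668-104982967, minus strand): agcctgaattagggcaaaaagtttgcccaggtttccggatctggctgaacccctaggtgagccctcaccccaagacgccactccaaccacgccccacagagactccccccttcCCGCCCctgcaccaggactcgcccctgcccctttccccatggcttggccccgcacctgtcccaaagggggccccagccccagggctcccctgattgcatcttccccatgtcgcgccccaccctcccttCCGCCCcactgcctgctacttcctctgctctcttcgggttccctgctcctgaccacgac

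The GC box was found in each of the 3 promoters of lower genes and in neither of the 2 promoters of higher genes. Across the members it was present at 21 of 35 start sites (60%), against 35.7% of 32851 promoters of the same length, and the median GC content was 61.7% for members and 52.7% for all. The palindrome TTCNNNGAA, a STAT-type motif, was present at the promoters of Abcc4 and Abcc5 only (5.7% of member start sites, 8.3% of all). On either strand, GAGGAAGT, an ETS-type motif, was found for Abcc10, Abcg2 and Abcg3 (8.6% against 3.2%), AGATAA, which the erythroid factor Gata1 binds, for Abca16 and Abcf2 (5.7% against 11.2%), and TGANTCA, an AP-1-type motif, at none (0% against 7.8%). No motif of these 5 contains another, and a match describes only the letters of the window.

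Libraries that stand apart are given before the results. Total counts ran from 4939644 to 8620101 in CML and from 1041552 to 5104268 in CML-TKI libraries, and the floor of 3 counts per library corresponds to 0.409 to 0.58 CPM in CML and to 0.57 to 3.29 CPM in CML-TKI libraries, highest in CML-TKI 3. The ribosomal RNA gene Rn45s took 20.24% to 38.28% of the counts in CML and 9.23% to 22.5% in CML-TKI libraries. The column of the fourth CML library carries the number 5, which no label gives, and is called CML 5. CML 1 to 3 were close to each other (biological coefficient of variation 11%), against 28% over the 4 CML libraries and 69.2% over the CML-TKI libraries, and nothing in the sources says that the libraries are separate animals, so p-values measure the spread between these libraries. CML-TKI 1 lay at -19.2 on the first principal component of all tested genes, between the CML libraries (-74.4 to -69.3) and the other CML-TKI libraries (70.1 to 119). Summed granulocyte markers (12 of 12 in the table) ran from 164 to 268 CPM in CML and from 1470 to 8460 CPM in CML-TKI libraries, macrophage and monocyte markers (10 of 10) from 245 to 352 and from 1490 to 7670 CPM, and hematopoietic stem cell markers (13 of 13) from 2580 to 3310 and from 275 to 912 CPM, with CML-TKI 1 nearest to CML in all 3 and none of these markers at 0 throughout a group. Megakaryocyte markers (6 of 7) ran from 1200 to 1450 CPM and from 48.7 to 584 CPM. Erythroid markers (10 of 10) summed to between 208 and 281 CPM in CML libraries and to 250, 363, 33100 and 1090 CPM in CML-TKI 1 to 4, where CML-TKI 3 held 19600 CPM of Hba-a1 and 11900 CPM of Hbb-bs. Lymphoid markers (7 of 7, with Cd3e at 0 in CML) ran from 1.54 to 7.35 CPM and from 6.84 to 235 CPM, again highest in CML-TKI 3. Endothelial markers (8 of 8, with Cldn5 at 0 in CML-TKI) ran from 237 to 415 CPM and from 61.1 to 133 CPM, and mural markers (5 of 7, pericytes and smooth muscle) from 15.8 to 56.2 CPM and from 12.2 to 210 CPM. In bulk samples such as these, fewer cells of a type and less RNA per cell cannot be told apart, and the part of these cell markers in the changes of ABC genes was not tested.

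The question was which ABC genes differed in RNA between the sorted cells of imatinib-treated and untreated mice. Of the 39 members, 34 passed the filter on low counts and were tested together with all 11937 tested genes by the quasi-likelihood test of edgeR, with Benjamini-Hochberg adjusted p-values. At an adjusted p under 0.05, 3 members were higher in CML-TKI libraries (Abca13, Abcd2 and Abcc2), where 6.29% of all tested genes were, and 5 were lower (Abca2, Abcc1, Abcc9, Abcg1 and Abcg3), where 3.93% of all tested genes were. Together these are 23.5% of the tested members, against 10.2% of all tested genes. The tested members' median log2 fold change was -0.09, against 0 for all genes, with 17 members above and 17 below 0. Every CML-TKI library lay above every CML library for 6 tested members and below for 11, together 50% of them, against 10.3% and 13.1% (together 23.4%) of all tested genes. Among these 17 members, CML-TKI 1 was the CML-TKI library nearest to the CML mean for 8, CML-TKI 3 for 5, CML-TKI 4 for 4 and CML-TKI 2 for 0. Abcc2 passed the filter through the CML-TKI libraries alone and Abcc9 through the CML libraries alone, so for these 2 genes a difference followed from passing, and their calls and p-values are given as a description only. Both are included in the counts and shares above. With CML 1 to 3, which varied little, summed to a single library, Abca13 and Abcc9 were still called and the other 6 were not. Their adjusted p was then 0.0585 for Abcd2 (log2 fold change 4.96), 0.123 for Abcc2, 0.168 for Abca2 (-1.11), 0.32 for Abcc1 (-0.95), 0.146 for Abcg1 (-1.82) and 0.267 for Abcg3 (-2.47).

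**Figure D1:**
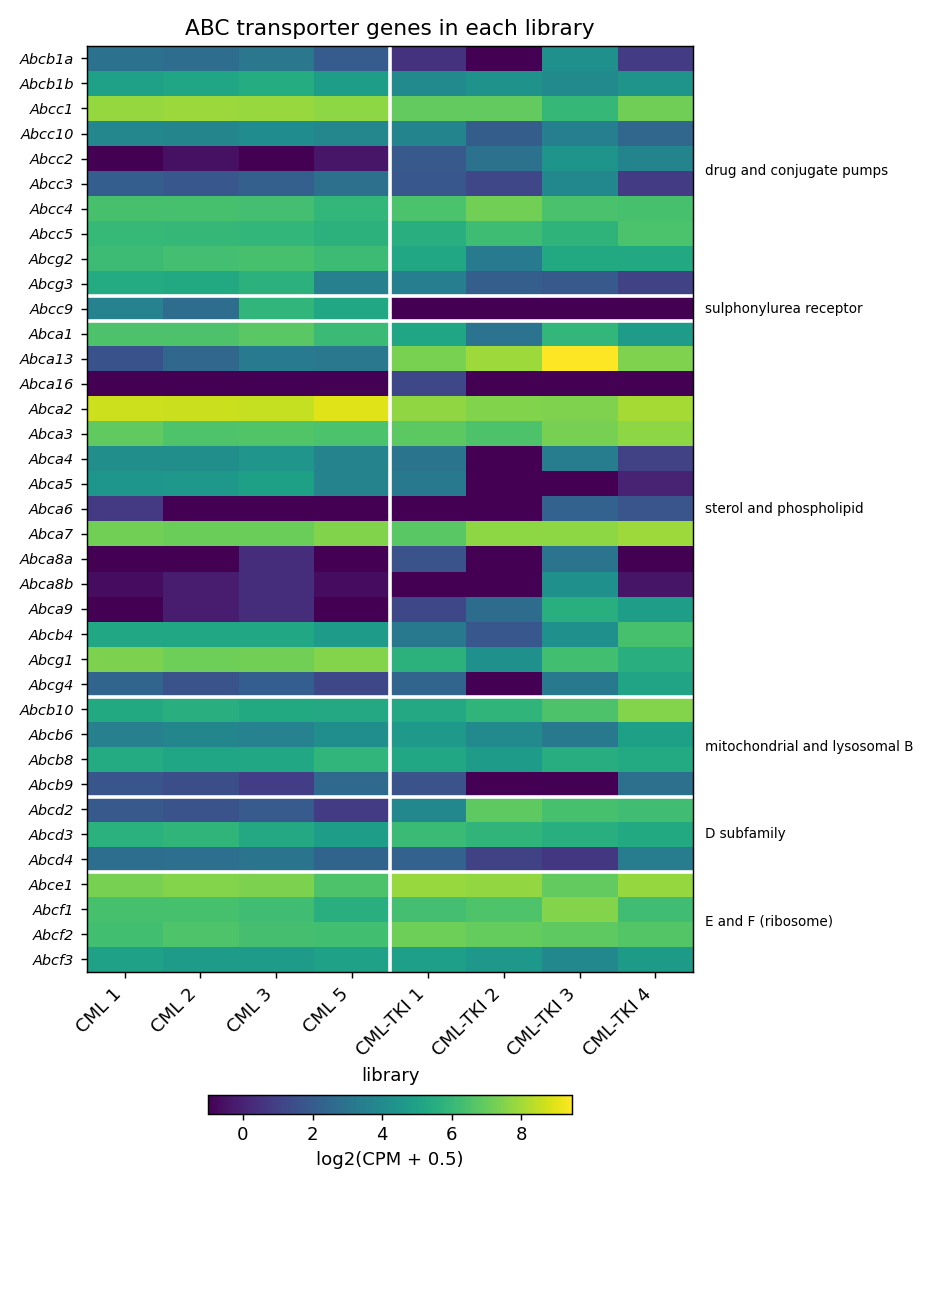
Level of 37 ABC genes (rows, grouped by role) in each of the 8 libraries (columns) as log2(CPM + 0.5), with white lines between roles and between CML and CML-TKI. Abca13 turns from a dark to a bright row on the CML-TKI side, and Abcc9 is at 0 in all 4 CML-TKI libraries.

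**Figure D2:**
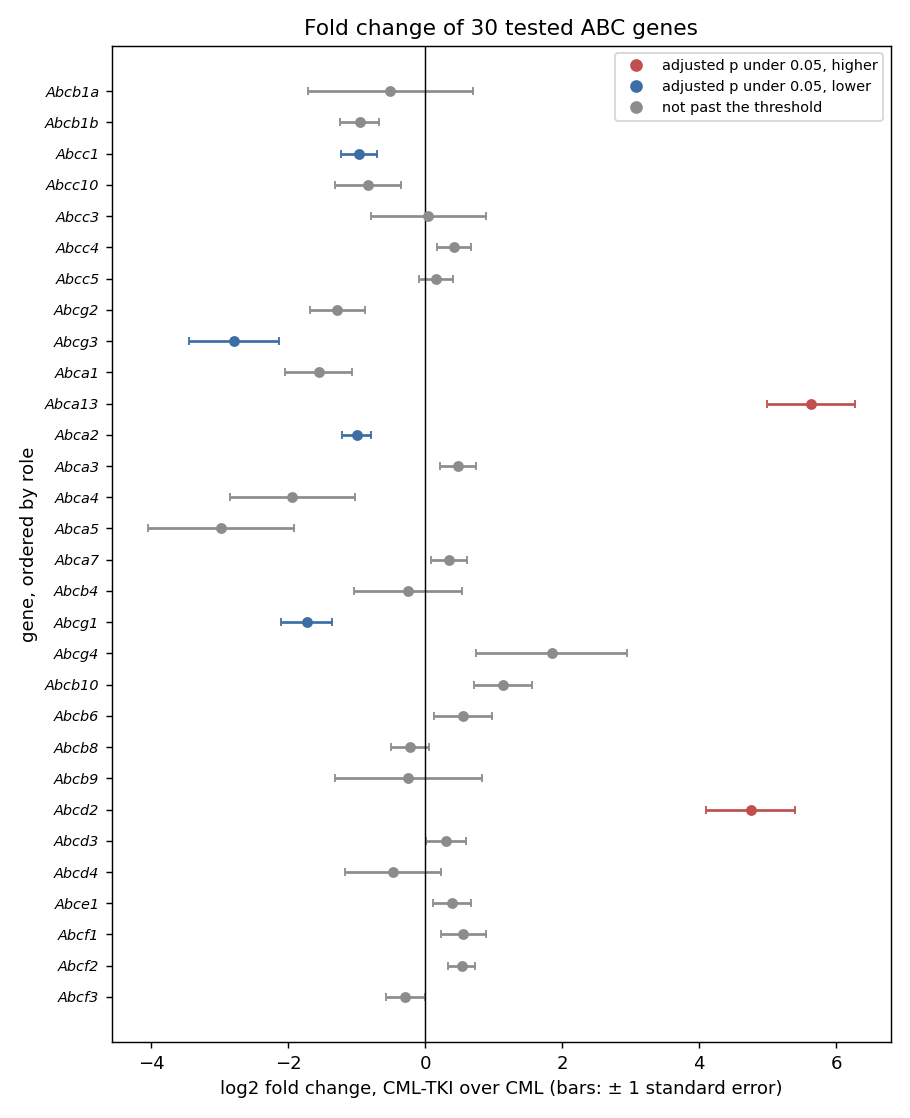
Log2 fold change of CML-TKI over CML with ± 1 standard error for 30 tested members, ordered by role, red where higher and blue where lower at an adjusted p under 0.05 and grey otherwise. Abcc9 and Abcc2, with 0 and 3 counts in 1 group, are left out because a fitted fold change of such genes rests on the prior count. Abca13 and Abcd2 lie far to the right, and most other members lie within 2 log2 units of 0.

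Among the drug and conjugate pumps of the plasma membrane (10 members, all tested), 1 was higher, 2 were lower and 7 did not pass the threshold, against 10.2% called among all tested genes. The higher member was Abcc2, which passed the filter through the CML-TKI libraries alone, so its call is a description only. The median log2 fold change of the 10 pumps was -0.67, against 0 for all genes. Abcg2, Abcb1b and Abcb1a, the pumps known to carry imatinib, had lower means in CML-TKI libraries, and none of their differences passed the threshold of the edgeR test. Abcg2 (chromosome 6, 58584491 to 58692451, GRCm38) had 71.0, 80.1, 83.7 and 71.1 CPM in CML 1, 2, 3 and 5, and 36.7, 9.3, 40.6 and 39.8 CPM in CML-TKI 1 to 4. The groups did not overlap, and CML-TKI 2 lay far below the other 3. The log2 fold change of Abcg2 was -1.29 (standard error 0.40), with an adjusted p of 0.073. Without CML-TKI 2 it was -0.98 and the adjusted p became 0.0283, and over all 8 libraries it was 0.0191 with DESeq2 and 0.00952 with limma-voom. With the replicate block the adjusted p was 0.193, and with CML 1 to 3 summed it was 0.363. Abcg2 was called in 4 of 18 alternatives, and in 1 of the 8 fits that left out 1 library. Abcb1b (chromosome 5, 8798147 to 8866314) had 30.9, 35.3, 44.4 and 28.5 CPM in the CML libraries and 15.0, 20.1, 15.3 and 20.8 CPM in the CML-TKI libraries. These groups did not overlap either, and the log2 fold change was -0.96 (standard error 0.28, adjusted p = 0.0595 by edgeR's quasi-likelihood test). It passed with DESeq2 (adjusted p = 0.00711) and with library totals without Rn45s (0.0391), and 0 of the 8 fits that each left out 1 library called it. Abcb1a (chromosome 5, 8567091 to 8748575), at 6.95, 6.18, 8.31 and 3.57 CPM in the CML libraries, had 0.95, 0, 18.6 and 1.3 CPM in CML-TKI 1 to 4. CML-TKI 3, with 17 counts of Abcb1a and the erythroid and lymphoid markers given above, was higher than every CML library while the other 3 CML-TKI libraries were lower. The log2 fold change of Abcb1a was -0.51 (standard error 1.20, adjusted p = 0.834), and it was -2.96 without CML-TKI 3, with an adjusted p of 0.072. Reads shared by Abcb1a and Abcb1b, as in the printed run, could have been split between them, and the levels of both are uncertain.

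Abcc1 (chromosome 16, 14361453 to 14474878), the multidrug resistance protein that exports glutathione conjugates and leukotrienes, had the highest CPM of the pumps in CML libraries. Its values were 221, 234, 231 and 201 CPM in the CML libraries and 122, 123, 61.4 and 144 CPM in the CML-TKI libraries. Each CML-TKI library was below each CML library, and the log2 fold change was -0.97 (standard error 0.26, adjusted p = 0.0433). This call lies close to the threshold. It was lost without CML 1 (adjusted p = 0.121), CML 2 (0.118), CML 3 (0.116), CML 5 (0.0612) or CML-TKI 2 (0.0761), while the log2 fold change ranged from -1.11 to -0.77 over the 8 fits that left out 1 library. Abcg3 (chromosome 5, 104935057 to 104982811), a close relative of Abcg2 in rodents, fell from 42.4, 39.8, 51.4 and 11.3 CPM to 11.0, 4.03, 3.29 and 1.56 CPM. CML 5 lay near CML-TKI 1, and the groups were separated by a small margin. For Abcg3 the log2 fold change was -2.79, its standard error 0.66 and the adjusted p 0.0262. Leaving out CML 1 (0.077), CML 2 (0.069), CML 3 (0.0773), CML-TKI 2 (0.0681) or CML-TKI 3 (0.0577) ended the call, at log2 fold changes of -2.72, -2.77, -2.6, -2.68 and -2.67. Without CML-TKI 1 the log2 fold change was -3.65 (adjusted p = 0.00452).

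Abcc2 (chromosome 19, 43782308 to 43838332), a pump for bilirubin and other conjugates that is best known from the liver, went the other way. It had 0, 0.193, 0 and 0.275 CPM in CML 1, 2, 3 and 5, a total of 3 counts, and 3.23, 7.13, 20.8 and 12.5 CPM in CML-TKI 1 to 4, a total of 107 counts. The ratio of the pooled counts was 67.2, with an exact 95% interval for counting error from 22.4 to 331 (adjusted p = 0.00655 by edgeR's quasi-likelihood test). The adjusted p was at most 0.0312 in the 8 fits that left out 1 library, 0.123 with CML 1 to 3 summed and 0.109 with the replicate block, and since Abcc2 was tested through the CML-TKI libraries alone, these values describe it and lend it no support.

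The other pumps did not pass the threshold. Abcc4, an exporter of cyclic nucleotides and nucleoside drugs, had 84.8, 85.5, 79.0 and 59.7 CPM in the CML libraries and 90.4, 151, 87.7 and 84.5 CPM in the CML-TKI libraries. CML-TKI 2 stood above the rest and the groups overlapped (log2 fold change 0.42, standard error 0.25, adjusted p = 0.324). Abcc5, also an exporter of cyclic nucleotides, had 63.7, 61.0, 59.7 and 52.2 CPM and 47.1, 73.1, 54.8 and 89.0 CPM. The CML-TKI values lay on both sides of the CML values (log2 fold change 0.16, adjusted p = 0.733). The sign changed without CML-TKI 4 (-0.02). Abcc3, an exporter of glucuronides, had 3.81, 3.09, 4.06 and 6.74 CPM and 3.04, 1.86, 14.2 and 1.3 CPM. Here too CML-TKI 3 was the only CML-TKI library above the CML range, and the log2 fold change moved from 0.044 (adjusted p = 0.981) to -1.07 without it (0.294). Abcc10, an exporter of taxanes and other drugs, had 13.6, 12.9, 16.4 and 13.9 CPM and 12.7, 3.72, 11.0 and 4.94 CPM, without overlap of the groups and without passing (log2 fold change -0.83, adjusted p = 0.314).

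**Figure D3:**
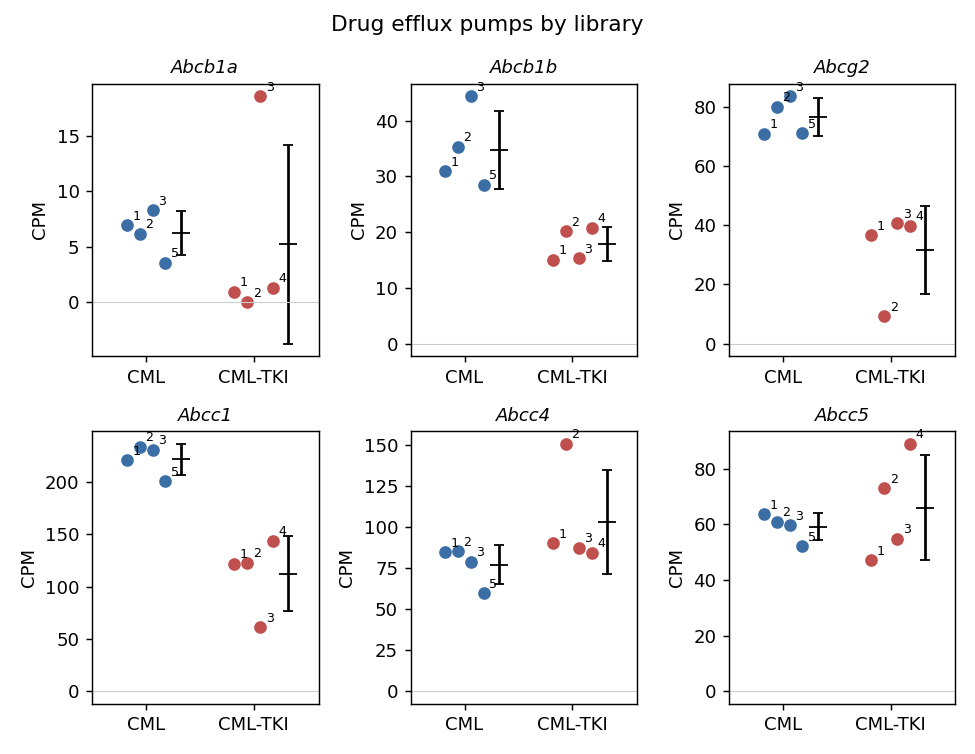
CPM (linear axis) of 6 drug efflux pumps in each library, numbered as in the text, with the mean ± SD of 4 libraries beside the points. For Abcb1b, Abcg2 and Abcc1 every CML-TKI library lies below every CML library, and the CML-TKI mean of Abcb1a rests on CML-TKI 3 at 18.6 CPM.

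Abcc9 (chromosome 6, 142587862 to 142702766), the sulphonylurea receptor that forms potassium channels with a pore subunit such as Kcnj8, was detected in CML libraries alone. It had 12.0, 6.18, 58.2 and 37.8 CPM in CML 1, 2, 3 and 5 and 0 counts in all 4 CML-TKI libraries (adjusted p = 0.00847 by edgeR's quasi-likelihood test). Against the floor of 3 counts in CML-TKI 3, the highest of the group's libraries, Abcc9 was at least 8.68-fold lower in CML-TKI libraries. Even within CML the level ranged widely, with CML 3 and 5 above CML 1 and 2. Kcnj8, whose gene lies 16247 bases from Abcc9 on chromosome 6, had 1.91, 0.772, 8.5 and 10.6 CPM in the same CML libraries and 0.19, 0, 0 and 0 CPM in CML-TKI 1 to 4. Of the listed endothelial markers, Cdh5 had 6.54, 3.86, 36.7 and 42.5 CPM in CML and 0.38, 0, 1.1 and 0 CPM in CML-TKI libraries, and Kdr had 23.7, 15.1, 67.6 and 51.8 CPM and 6.65, 0, 47.1 and 4.68 CPM. Both were higher in CML 3 and 5 than in CML 1 and 2, as Abcc9 was, but Kdr was present in CML-TKI 3, where Abcc9 had no count. Emcn (7.76, 8.69, 12.37 and 10.86 CPM in CML, 0 to 2.85 CPM in CML-TKI libraries) was also higher in CML 3 and 5. So was Esam (99.8, 78.9, 103.8 and 140.6 CPM, and 0 to 27.35 CPM), though only slightly in CML 3. Flt1 and Cldn5 were removed by the filter. Tek had 74.0, 73.4, 94.7 and 57.7 CPM in CML and 0 to 12.9 CPM in CML-TKI libraries, and Pecam1 had 54.3, 55.6, 76.7 and 53.3 CPM and 33.4 to 74.4 CPM, and neither was high in CML 5. The mural markers Notch3 (8.99, 3.47, 6.57 and 18.4 CPM in CML, 0 to 7.67 CPM in CML-TKI libraries) and Pdgfrb (11.7, 10.8, 10.6 and 25.9 CPM, and 11.5 to 52.6 CPM) were highest among the CML libraries in CML 5 and were not raised in CML 3. They are the 2 mural markers that were tested. Kcnj8 is on the mural list too, and was higher in CML 3 and 5 than in CML 1 and 2, as Abcc9 was. These genes were set beside Abcc9 after their values were seen, and the part of endothelial or mural RNA in the level of Abcc9 was not tested. Abcc9 was tested through the CML libraries alone, so its p-values are a description. The threshold was passed in each of the 8 fits without 1 library and missed with limma-voom and sample quality weights (adjusted p = 0.371), with the replicate block over numbers 1 to 3 (0.0809) and over those 6 libraries without the block (0.0678).

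Among the sterol and phospholipid transporters (15 members, of which 10 were tested), 1 was higher and 2 were lower, against 10.2% called among all tested genes, and their median log2 fold change was -0.62, against 0 for all genes. Abca13 (chromosome 11, 9191942 to 9684871) is a very large member of subfamily A, with a longest open reading frame of 15105 bases in its transcript, and was higher by a factor of 49.7. It had 2.59, 5.02, 9.28 and 8.66 CPM in CML 1, 2, 3 and 5 and 163, 243, 699 and 174 CPM in CML-TKI 1 to 4. No CML library came near a CML-TKI library, and CML-TKI 3 stood far above the other 3. The log2 fold change of Abca13 was 5.64 (standard error 0.64, adjusted p = 0.001), and it ranged from 4.93 (without CML-TKI 3) to 5.86 over the fits that left out 1 library. Abca13 made up between 0.116% and 0.415% of all counts of ABC genes in CML libraries and 8.04%, 11%, 25% and 6.62% in CML-TKI 1 to 4.

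The cholesterol exporters Abca1 and Abcg1, which load sterol onto lipoprotein particles and are classical targets of the LXR receptors, both had lower values. Abcg1 (chromosome 17, 31057694 to 31117984) had 167, 142, 148 and 182 CPM in the CML libraries and 51.9, 18.6, 77.8 and 47.1 CPM in the CML-TKI libraries, without overlap. Its log2 fold change was -1.73 (standard error 0.37, adjusted p = 0.0164), and the adjusted p rose to 0.054 without CML 1. Abca1 had 92.3, 92.6, 108 and 69.7 CPM and 34.4, 7.44, 59.2 and 26 CPM. Its groups did not overlap, with CML-TKI 2 lowest for Abca1 as for Abcg1, but its log2 fold change of -1.56 (standard error 0.49) missed the threshold (adjusted p = 0.0746). It passed without CML-TKI 3 (-1.98, adjusted p = 0.0345) and over all libraries with DESeq2 (adjusted p = 0.0203) and limma-voom (0.00141). Abca1 was called in 3 of 18 alternatives, and missed with the replicate block (0.186) and with CML 1 to 3 summed (0.372). Abca2 (chromosome 2, 25428599 to 25448544), a lipid transporter of lysosomes and late endosomes, was the member with the most counts in CML libraries. It had 398, 392, 374 and 487 CPM in the CML libraries and 208, 178, 174 and 266 CPM in the CML-TKI libraries, and the groups stayed apart. The log2 fold change of Abca2 was -0.998 (standard error 0.21, adjusted p = 0.016), and the call was lost without CML 1 (0.0586) or CML 2 (0.0525). Its share of all ABC counts was 16.5% to 23.4% in CML and 6.24% to 10.2% in CML-TKI libraries.

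Lower values without a call were found for Abca4 and Abca5. Abca5 had 22.1, 23.4, 30.0 and 12.2 CPM in the CML libraries and 8.93, 0, 0 and 0.52 CPM in CML-TKI 1 to 4. CML-TKI 1 was the library nearest to the CML range, and the log2 fold change went from -2.98 (standard error 1.07, adjusted p = 0.11) to -6.35 without it (0.000952), and it passed with DESeq2 (0.0384) and limma-voom (0.00541). Abca5 was called in 3 of 17 alternatives. Abca4 had 17.4, 17.2, 21.3 and 12.2 CPM and 7.6, 0, 9.86 and 1.56 CPM (log2 fold change -1.94, adjusted p = 0.216, or 0.0241 with limma-voom), and its log2 fold change was -2.62 without CML-TKI 1 (0.103). Both were below the CML range in every CML-TKI library. Abca3 and Abca7 had positive fold changes that did not pass (log2 fold changes 0.48 and 0.35, adjusted p = 0.29 and 0.438), and the values of Abca3, which carries surfactant lipids in lung, are partly shared with another annotated transcript. Abcg4, a relative of Abcg1, had 0 to 34.1 CPM in the CML-TKI libraries and 1.92 to 4.77 CPM in CML libraries (log2 fold change 1.85, adjusted p = 0.326), and without CML-TKI 4 its log2 fold change was 0.31 (adjusted p = 0.886). Abcb4, the phosphatidylcholine floppase that is a neighbour of Abcb1a and Abcb1b on chromosome 5, ran from 26.5 to 38.5 CPM in CML and was at 8.74, 3.1, 18.6 and 85.3 CPM in CML-TKI 1 to 4. CML-TKI 4 was the exception among lower values (log2 fold change -0.25, adjusted p = 0.879), and the log2 fold change was -1.88 without it (adjusted p = 0.0722). The sign turned without CML-TKI 1 (0.07) or CML-TKI 2 (0.13).

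The 5 members that the filter removed were Abca6, Abca8a, Abca8b, Abca9 and Abca16. All but Abca16 lie beside Abca5 in a cluster on chromosome 11 (GRCm38, from 109932206 for Abca8b to 110337723 for Abca5). Abca9 had 0, 0.386, 0.773 and 0 CPM in the CML libraries, 6 counts in all, and 1.9, 5.89, 48.2 and 27.3 CPM in CML-TKI 1 to 4. Every CML-TKI library was above every CML library, though only the CML-TKI libraries bring Abca9 past a filter on low counts, so a difference follows from passing. Abca9 passed the threshold in the fit without a filter (log2 fold change 6.09, adjusted p = 0.0245) and with DESeq2 (6.23, 1.71e-05). Where leaving out 1 library let it through the usual filter, it passed without CML 3 (0.0391) or CML-TKI 1 (0.00358) and not without CML 1 (0.0628), CML 2 (0.0634) or CML 5 (0.061), nor with CML 1 to 3 summed (0.16). The neighbouring Abca5 had lower values in CML-TKI libraries. Abca6 had at most 4.38 CPM, Abca8a at most 7.67 CPM and Abca8b at most 18.6 CPM, each with its highest value in CML-TKI 3, and Abca16 had counts in CML-TKI 1 alone (1.9 CPM).

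**Figure D4:**
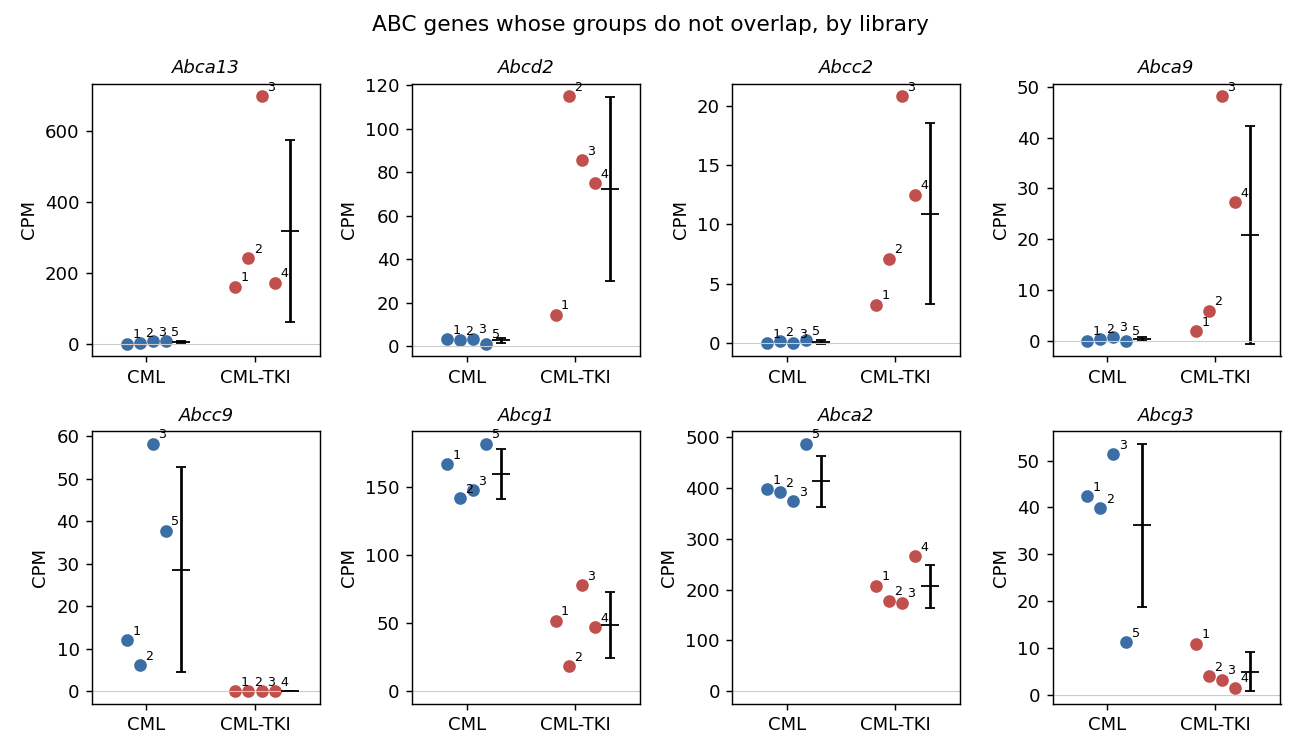
CPM (linear axes, each gene on its own scale) of 8 of the members whose groups did not overlap, by library, with the mean ± SD of 4 libraries beside the points. Abca13, Abcd2, Abcc2 and Abca9 rise from near 0, with CML-TKI 1 lowest of its group, and Abcc9, Abcg1, Abca2 and Abcg3 lie lower in every CML-TKI library.

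Of the mitochondrial and lysosomal B members, Abcb6, Abcb8, Abcb9 and Abcb10 are described here. None of these 4 passed the threshold by edgeR's test, where 10.2% of all tested genes did, or with DESeq2, where 17.7% did. With limma-voom 1 of them, Abcb10, passed, where 21.5% of all tested genes did, and its unadjusted p by edgeR's test was under 0.05. Abcb10, a mitochondrial transporter needed for heme synthesis in red cell precursors, had 40.0, 47.9, 40.0 and 39.2 CPM and 38.6, 57.3, 91.0 and 181 CPM. CML-TKI 1 stayed at the CML level while CML-TKI 3 and 4, which had the most erythroid marker RNA, were highest. The erythroid markers summed to 33100 CPM in CML-TKI 3 and 1090 CPM in CML-TKI 4, so these libraries ranked the other way for Abcb10. The log2 fold change of Abcb10 was 1.14 (standard error 0.43, adjusted p = 0.123), and it passed without CML-TKI 1 (1.40, adjusted p = 0.0224). Without CML-TKI 4 it was 0.55 (adjusted p = 0.315), and with the replicate block 0.47 (0.533). The part of erythroid cells was not tested. Abcb6, a porphyrin transporter, had a log2 fold change of 0.55 (adjusted p = 0.45), with 11.2 to 18 CPM in CML and 8.77 to 29.9 CPM in CML-TKI libraries. Most of its sequence is shared with Gm29253, so its counts are uncertain, though they were fractional in 0 libraries. Abcb8, of the inner mitochondrial membrane, ran from 35.3 to 58.0 CPM and from 26 to 44.9 CPM (-0.22, adjusted p = 0.661), and the lysosomal peptide transporter Abcb9 from 1.35 to 5.5 CPM and from 0 to 6.76 CPM (-0.24, adjusted p = 0.916). The sign of Abcb9 changed without CML 5 (0.18), CML-TKI 2 (0.18) or CML-TKI 3 (0.06), and the value was -1.41 without CML-TKI 4 (adjusted p = 0.478).

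The D subfamily differed among its members. Abcd2 (chromosome 15, 91145871 to 91192007), an importer of very long chain fatty acids into peroxisomes, had 3.27, 2.7, 3.48 and 1.24 CPM in CML 1, 2, 3 and 5 and 14.4, 115, 85.5 and 74.9 CPM in CML-TKI 1 to 4. CML-TKI 1 was intermediate, well above the CML range and well below the other 3. The log2 fold change of Abcd2 was 4.75 (standard error 0.64, adjusted p = 0.00217), and it ranged from 4.42 to 5.1 over the fits without 1 library. Abcd3, also peroxisomal, ran from 27.5 to 57.3 CPM in CML and from 40.8 to 69.1 CPM in CML-TKI libraries (log2 fold change 0.31, adjusted p = 0.557). Abcd4, which serves cobalamin release from lysosomes, ran from 4.67 to 7.73 CPM and from 1.1 to 10.4 CPM (-0.47, adjusted p = 0.727, and -1.31 without CML-TKI 4, adjusted p = 0.254).

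The 4 members that act on ribosomes were all tested and none passed the threshold by edgeR's test, where 10.2% of all tested genes did. With DESeq2 1 of them passed, where 17.7% of all tested genes did, and with limma-voom 0 passed, against 21.5%. The member that passed with DESeq2 was Abcf2, whose unadjusted p by edgeR's test was under 0.05. Abcf2 had 77.6, 95.5, 81.7 and 78.6 CPM in the CML libraries and 142, 125, 114 and 101 CPM in the CML-TKI libraries. The groups did not overlap (0.53 on the log2 scale with a standard error of 0.19, adjusted p = 0.113, or 0.0345 with DESeq2). Abce1, which recycles ribosomes after termination, had 159, 183, 165 and 93.1 CPM and 228, 213, 122 and 220 CPM (0.39, adjusted p = 0.424), with CML 5 and CML-TKI 3 lowest in their groups. Abcf1, a partner of the initiation factor eIF2, ran from 48.1 to 84.8 CPM and from 74.4 to 183 CPM (0.555, adjusted p = 0.322), and Abcf3 from 26.3 to 30.9 CPM and from 14.2 to 29.6 CPM (-0.29, adjusted p = 0.584).

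Levels of different genes were compared per kilobase of annotated exons (GENCODE M21), since longer transcripts collect more reads. On this scale the CML mean was highest for Abca2 (49.5 CPM per kilobase), followed by Abcf2 (32.5), Abce1 (25.0), Abca7 (22.2) and Abcg1 (21.9). In CML-TKI libraries the levels of Abcf2 (46.9), Abce1 (32.6) and Abca7 (28.3) were above that of Abca2 (24.7). The pumps were lower on this scale, with 14.7 for Abcc1, 12.1 for Abcc4, 9.38 for Abcg2 and 4.35 for Abcb1b in CML, and 7.45, 16.2, 3.87 and 2.23 in CML-TKI libraries. Abca13 rose from 0.324 to 16.2 and Abcd2 from 0.449 to 12.2 CPM per kilobase. The exon lengths are the union over all annotated transcripts, and neighbours in this order were not tested against each other. This union is 8153 bases for Abcg2 and 15092 for Abcc1, against 2178 and 6792 in the transcript with the longest open reading frame. For Abcf2 both lengths are 2569 bases. The place of the pumps in this order therefore depends on the length used. All ABC genes together held 0.285% to 0.299% of the counts outside Rn45s in CML and 0.253% to 0.325% in CML-TKI libraries.

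**Figure D5:**
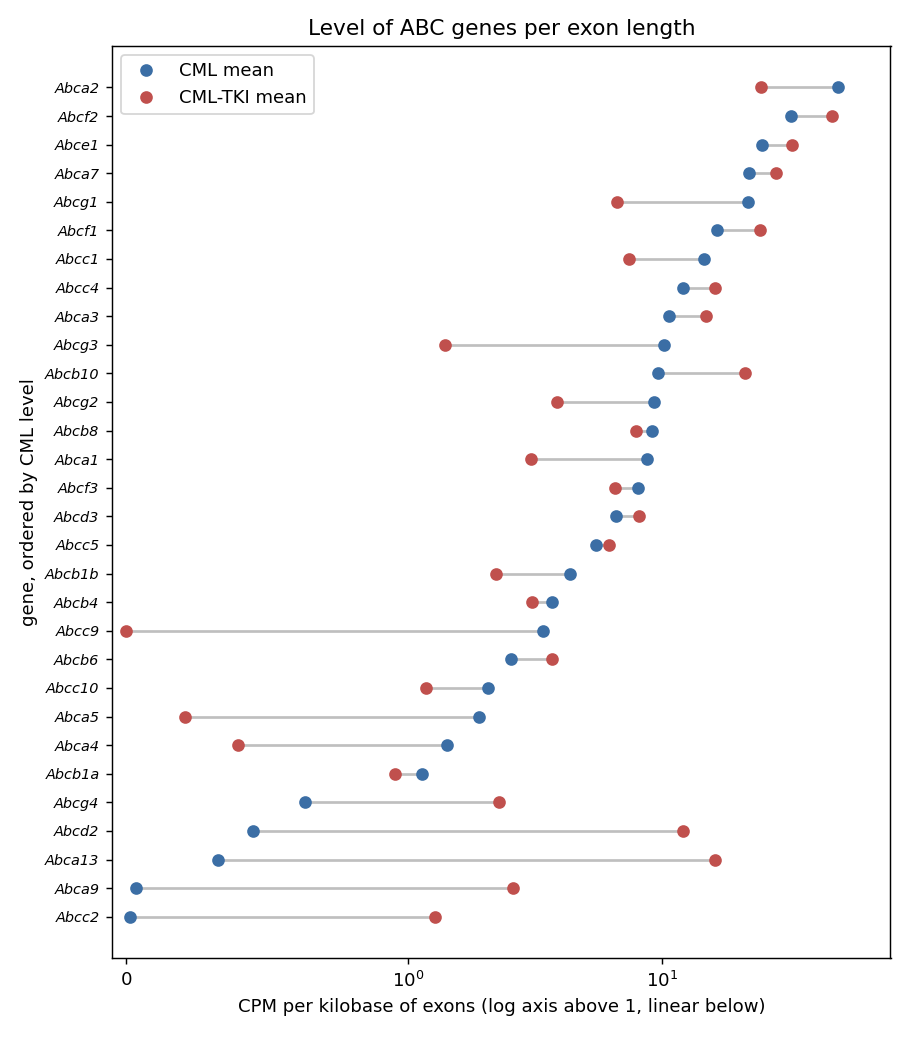
Mean level per kilobase of exons in CML (blue) and CML-TKI (red) for 30 members with at least 1 CPM per kilobase in a group, ordered by the CML mean, on an axis that is linear below 1 and logarithmic above. Long lines lead to lower levels for Abcc9 and Abcg3 and to higher levels for Abca13, Abcd2, Abca9 and Abcc2.

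Genes that work with ABC proteins were read from a list of 78 symbols outside the family, of which 72 were in the table and 66 were tested. By edgeR's test 8 were higher and 4 were lower in CML-TKI libraries, 18.2% of those tested, against 10.2% of all genes, and the values below are log2 fold changes, each followed by its adjusted p. Of 5 tested glutathione transferases, which supply conjugates to the C subfamily, Mgst1 (2.78, 0.0119) and Gstm1 (2.14, 0.016) rose and Gstt1 fell (-3.97, 0.0435), while Gstp1 (-0.47, 0.55) and Gsto1 (-0.08, 0.889) did not pass. Of 8 tested genes of drug uptake and xenobiotic control, 2 rose and 6 did not pass. Gsr, the glutathione reductase, rose (2.72, 0.00235), and so did the uptake carrier Slc22a4, from 1.43 ± 0.782 CPM to 20.05 ± 10.16 CPM (SD, n = 4, log2 fold change 3.76, adjusted p = 0.00499 by edgeR). The subunits of the enzyme that starts glutathione synthesis, Gclc (0.015, 0.978) and Gclm (0.086, 0.864), did not pass. Of 14 tested sterol genes 2 rose and 2 fell. The LXR target Apoe fell (-1.95, 0.0193) along with the sterol regulator Srebf2 (-1.05, 0.0333), and Soat1, which esterifies cholesterol for storage, and Npc2, which moves it out of lysosomes, rose (2.14, 0.0126 and 1.23, 0.015). The LXR receptor gene Nr1h2 and its partner Rxra gave log2 fold changes of 0.20 and 0.30 without passing. Mylip (-1.09, 0.194), Srebf1 (-0.33, 0.402) and Lpcat3 (-0.14, 0.814), from the same list of sterol regulators and LXR targets, did not pass either. Alas1, the first enzyme of heme synthesis, rose (3.06, 0.00319), and the other 13 tested genes of heme and iron-sulphur cluster synthesis did not pass. The antigen peptide transporter Tap1, an ABC protein outside the naming rule, fell (-1.19, 0.00604), and its partner Tap2 missed the threshold (-0.89, 0.0568). Hbs1l, a ribosome rescue factor, rose (0.89, 0.04). Without passing were the peroxisomal import receptor Pex5 (-0.88, 0.0627), and Ezr (0.93, 0.0929) and Msn (0.86, 0.0526), which anchor membrane proteins such as efflux pumps to actin.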

How the data were processed

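The deposited values are estimated counts for each gene, not all whole numbers, which the authors made by aligning reads to mm10 (STAR 2.6.1d) and quantifying against RefSeq transcripts with the Partek software (8.0). Counting strand was not given in the sources used here. Counts were rounded and filtered with filterByExpr (minimum count 10, minimum total 15). They were TMM-normalised, and tested by edgeR 4.0.16 (R 4.3.3) with the quasi-likelihood F test on CML-TKI against CML, Benjamini-Hochberg adjustment over 11937 genes and a threshold of 0.05. Standard errors were obtained from the fold change (log2) and the root of its F statistic. CPM are TMM-normalised. Alternatives used DESeq2 1.42.0, limma 3.58.1, other normalisations and filters, thinning, a replicate block and leaving out libraries. The code was tested on simulated data. The members, their roles and the partner and marker lists were chosen with earlier results of these data known. Values of some genes are not reported here, though counts over the family include them. By rule, every other tested member is named, and members called, best known as pumps or with groups that did not overlap are given per library. The floor is 3 counts per library, and floors and intervals cover counting error only.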

Additional observations from a re-analysis of the deposited data

Results flagged for a closer look

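Of 70 groups of 4 libraries in which a member had more than 10 counts in some library, 10 held a library whose gap to its nearest neighbour exceeded Dixon's 95% limit for 4 values (0.829 of the range). Independent normal values would give about 1 in 20 groups. The 70 groups share the same libraries and include values near 0, and the share over all genes was not taken, so no excess is read from the 10. CML-TKI 3 was the library apart in 5 of them. Its Abca13 level was 699 CPM against 163 to 243 CPM in the other 3 CML-TKI libraries, Abca8b was 18.6 against 0 to 0.26 CPM, Abcb1a was 18.6 against 0 to 1.3 CPM, Abcc3 was 14.2 against 1.3 to 3.04 CPM, and Abce1 was 122 against 213 to 228 CPM. CML-TKI 2 stood apart for Abcc4, at 151 against 84.5 to 90.4 CPM, and for Abcg2, at 9.3 against 36.7 to 40.6 CPM. CML-TKI 1 stood apart for Abca5, at 8.93 against 0 to 0.52 CPM. Among the CML libraries, CML 2 was apart for Abcb10, at 47.9 against 39.2 to 40 CPM, and CML 5 for Abcb4, at 26.5 against 36.6 to 38.5 CPM. CML-TKI 3 was also the shallowest library, where 18.6 CPM is 17 counts.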

How the results depend on the processing

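The main analysis called 3 members higher, 5 lower, 1220 genes in all and 12 partner genes. In that order, DESeq2 called 7, 9, 2420 and 21, limma-voom with sample quality weights 5, 8, 2563 and 18, and the fit with CML 1 to 3 summed 1, 1, 122 and 0. The planned replicate block over numbers 1 to 3 gave 1, 0, 193 and 0, and the same 6 libraries without the block, a fit added after seeing the data, gave 3, 2, 589 and 7. Same-numbered libraries correlated at -0.04, 0.1 and 0.09, only number 2 correlated best with its own number, and the numbers were not taken as pairs. Leaving out 1 library gave 3 to 6 higher, 1 to 6 lower, 505 (without CML 1) to 2504 (without CML-TKI 1) in all and 5 to 21 partners. The other normalisations, filters and thinning stayed within 1.5 times of each count. Totals without Rn45s moved the median gene by -0.14, the block by -0.13 and limma-voom by -0.11. Signs turned in members that were not called. Abcc5 went to -0.09 with the replicate block, -0.06 over the same 6 libraries without it and -0.02 to 0.3 over the fits without 1 library, and Abcg4 to -0.55 with the replicate block. Abcc3 went to -0.54 with limma-voom, -0.14 with totals without Rn45s, -0.14 with CML 1 to 3 summed and -1.07 to 0.38 without 1 library. Without 1 library Abcb4 ran from -1.88 to 0.13, including 0.07, and Abcb9 from -1.41 to 0.18, including 0.06. The causes were not tested. Abca13 was called in all 18 alternatives. The 1041552 counts of CML-TKI 3 limit what can be seen of members under about 3.29 CPM there.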
